A study of Mus musculus with 4 samples.

Results

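The genes described here are 10 members of the bone morphogenetic protein (BMP) pathway: the ligands Bmp2, Bmp4, Bmp6 and Bmp7, the receptors Bmpr1a, Bmpr1b and Bmpr2, and the target genes Id1, Id3 and Id4. They were chosen by gene name, and all 10 were found among the 23475 genes listed in the deposited tables. Their expression was measured by mRNA sequencing of astrocytes isolated at postnatal day 5 (P5) from mouse cerebral cortex. The design text names the genotypes PD1cKO-Cx3, a conditional deletion of the immune receptor PD-1 (gene Pdcd1), and PD1fl/fl, a floxed PD-1 gene without deletion. The sample titles say only KO (2 libraries) and WT (2 libraries), which were read as these genotypes in that order. The labels do not say what drives the deletion beyond the letters Cx3, in which cells it acts, the sex of the animals, or whether a library is 1 animal or a pool. No other treatment is named for either group.

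BMPs are secreted growth factors of the TGF-beta family. They bind a complex of type I receptors (BMPR1A, BMPR1B) and a type II receptor (BMPR2), which phosphorylates SMAD1, SMAD5 and SMAD9, and these enter the nucleus with SMAD4 and switch on ID genes. ID proteins lack a DNA-binding domain and hold E proteins in pairs that cannot bind DNA. In the developing cortex BMP signalling is known to favour astrocyte over oligodendrocyte and neuronal fates. Secreted antagonists such as noggin and chordin keep ligands from their receptors.

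Of the 10 members 7 had an entry among the RefSeq promoter sequences (GRCm38.p6), all but Bmp2, Bmp7 and Id1. The 250 bases before the transcription start of Id4, as a target gene, and of Bmp4, the ligand with the highest mean level per kilobase of exon (Bmp7 had the higher mean CPM, counts scaled to the library size), are shown because they stand at the target end and the ligand end of the pathway. Both windows lie outside the annotated exons of their own gene. Capitals mark GGCGCC, a GC-rich sequence bound by SMAD1 and SMAD5 in BMP-responsive elements, which reads the same on both strands.
Id4, chr13:48260866-48261115, plus strand: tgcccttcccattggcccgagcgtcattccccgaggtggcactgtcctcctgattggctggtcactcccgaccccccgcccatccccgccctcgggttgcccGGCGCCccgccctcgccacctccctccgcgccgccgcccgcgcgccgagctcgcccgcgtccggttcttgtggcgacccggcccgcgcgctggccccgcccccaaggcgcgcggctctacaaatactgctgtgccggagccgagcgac
Bmp4, chr14:46390670-46390919, minus strand: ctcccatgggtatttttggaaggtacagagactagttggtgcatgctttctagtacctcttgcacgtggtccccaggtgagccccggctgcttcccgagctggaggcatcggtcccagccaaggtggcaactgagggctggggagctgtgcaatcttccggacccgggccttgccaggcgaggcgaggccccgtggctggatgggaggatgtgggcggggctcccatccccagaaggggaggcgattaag
GGCGCC stood once in the Id4 window, beginning 148 bases before the start, and did not occur in the Bmp4 window. It occurred in the windows of 3 of the 7 genes with an entry (Bmpr1a, Bmpr2 and Id4), against 9.54% of 27025 genes with 1 window each. GC-rich windows hold it more often, at 31.9% of the 4490 windows of at least 65% G and C, among which are those of Bmpr1a (78.8%) and Id4, while that of Bmpr2 was at 64.0%. The Bmpr1a and Bmpr2 windows lie within annotated UTR of their own gene over 141 and all 250 of their bases. A Bmpr1b window does so over 103 bases, and the Bmp6 and Id3 windows over all 250. The window of Id3, the other target gene with an entry, held no GGCGCC. The Id4 window was 75.6% G and C and the Bmp4 window 63.2%, beside a median of 52.0% over all genes. GTCT, the core of the SMAD box, is a different sequence from GGCGCC and was searched on both strands. It occurred in 4 of the 7 (Bmp4, Bmp6, Bmpr1b and Id3), against 83.0% of all windows. A match describes these letters only.

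Listed counts summed to 16103987 and 16405245 in the libraries labelled KO and to 16961160 and 14224519 in WT. Pdcd1 itself could not check the labels, with 20 counts in the library labelled KO 2, no listing in KO 1 (at most 4 counts) and 0 counts in both WT libraries, so the groups are called by their labels. KO replicate 2 also stood apart in the Y-linked gene Ddx3y (2472 counts) and in Xist (0 counts, against 6732 to 8564 in the other libraries). Ddx3y was at 0 counts in both WT libraries and not listed in KO replicate 1. KO replicate 2 thus had a male pattern and the other libraries a female one, so sex was unbalanced between the groups. The part of sex in the values below was not tested. All 10 astrocyte markers were detected in every library, with summed levels of 7941 and 7116 CPM in KO and 8002 and 7555 CPM in WT. Of the 10 microglia markers all 10 were higher in both KO libraries than in both WT libraries, with sums of 4429 and 3735 CPM against 829 and 1208 CPM. The 10 endothelial markers were likewise separated, with sums of 567 and 283 CPM in KO and 172 and 67.0 CPM in WT. Sums of the 8 meningeal fibroblast markers were 311 and 73.2 CPM in KO and 57.3 and 60.1 CPM in WT, where Aldh1a2 was at 0 in both libraries and Foxc1 in WT replicate 1. Levels were thus measured in a mixed preparation, in which fewer cells of a type and less RNA per cell cannot be told apart.

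The ID genes Id3 and Id1 were by far the most abundant members, and the ligands Bmp2 and Bmp6 the least. Per kilobase of exon, Id3 had a level of 315 ± 0.29 CPM per kb in KO against 411 ± 17.7 CPM per kb in WT (each SD over n = 2), a mean above 99.7% of the tested genes. Id1 followed with 114 ± 8.7 CPM per kb in KO and 134 ± 6.4 in WT, above 98.6% of the tested genes. In each library the Id3 level per kb was between 2.62 and 3.28 times that of Id1, the lowest ratio in KO replicate 2 and the highest in WT replicate 1.

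Among the others Bmp4 came next by mean level per kb, at 22.1 and 22.6 CPM per kb in KO and 27.9 and 8.54 in WT. Bmp7 (10.4 to 16.4 CPM per kb over all 4 libraries), Bmpr2 (10.1 to 12.5), Bmpr1a (9.56 to 13.2) and Bmpr1b (10.4 to 11.5) had overlapping ranges, so their order is not set by these data. Id4 lay at 6.84 to 9.90 CPM per kb. Bmp2 and Bmp6 did not exceed 1.06 and 0.767 CPM per kb in any library, and they stood above 14.2% and 6.4% of the tested genes. The deposited positions of Bmp6 and Id4 differ from the annotation that gave the exon lengths, so their levels per kb are less certain.

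**Figure D1:**
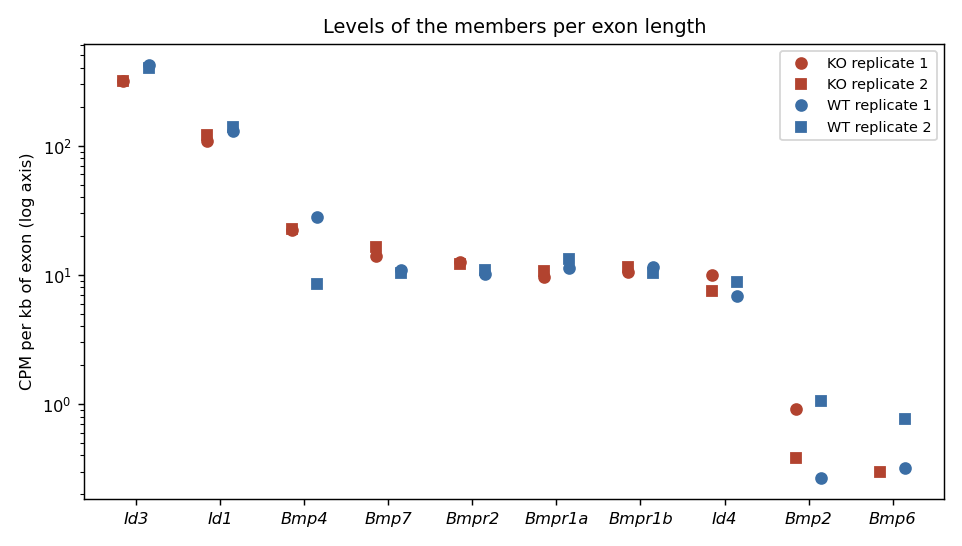
Level of each member in CPM per kilobase of exon (log axis), 1 point per library, with KO libraries left of WT libraries and members ordered by mean level. Id3 and Id1 lie above 100, 6 members lie between 6.84 and 27.9, and Bmp2 and Bmp6 lie near or below 1; the KO replicate 1 value of Bmp6 is 0 and cannot be drawn on this axis.

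The question put to these genes was whether they differ between the libraries labelled KO and WT. None of the 10 members passed the threshold over all genes (edgeR's quasi-likelihood test with p adjusted by Benjamini-Hochberg, threshold 0.05), where 3 of 17696 genes did, or 0.017%. DESeq2 called 1 member, Id3, as lower, beside 0.356% of all genes called lower and 1.78% called higher, and limma-voom called 0 members, beside 0.017% lower and 0.141% higher. At an unadjusted p under 0.05 there were 2 members, Bmp7 higher and Id3 lower, beside 8.29% of all genes tested (5.88% higher and 2.41% lower). The groups did not overlap in 6 of the 10, beside 39.6% of all genes. In 2 members (Bmp7 and Bmpr2) both KO libraries lay above both WT libraries, beside 21.2% of all genes. In 4 (Bmp6, Bmpr1a, Id1 and Id3) both lay below, beside 18.4% of all genes. The median log2 fold change of the members was -0.01, with 5 above 0 and 5 below 0, while 8842 of the 17696 genes were above 0. All 10 passed the low-count filter.

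**Figure D2:**
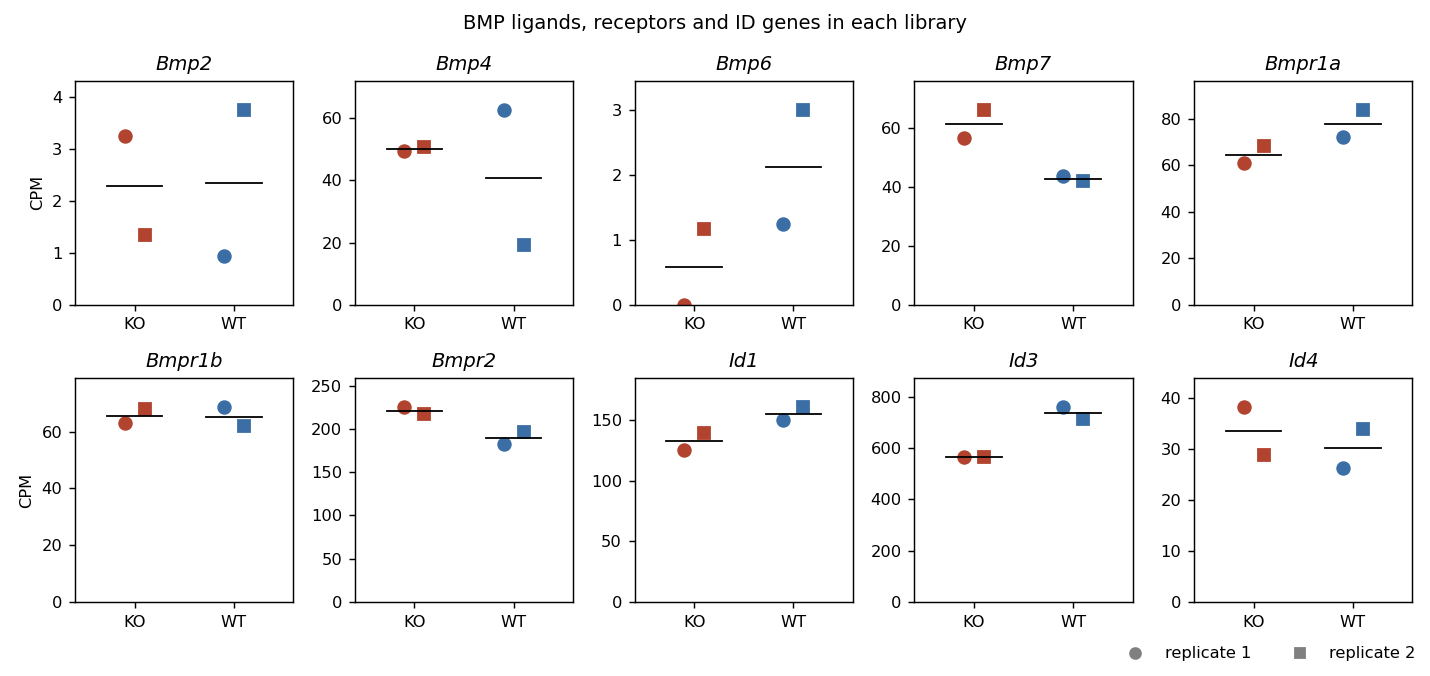
CPM of each member (vertical axes from 0, own scale per gene) in the 2 KO and 2 WT libraries, with bars at the group means; circles are replicate 1 and squares replicate 2. The KO points of Id3 (563 and 564 CPM) lie together below both WT points (713 and 758 CPM), while the WT points of Bmp4 (62.6 and 19.2 CPM) lie on either side of the KO points.

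Among the ligands, Bmp7 had the lowest p, and the WT libraries were far apart in Bmp4. Bmp7 (ENSMUSG00000008999, chromosome 2, 172868012 to 172940321, minus strand, GRCm38), a ligand made by meninges and choroid plexus as well as brain cells, had 56.6 and 66.0 CPM in KO against 43.7 and 41.9 CPM in WT. Both KO libraries were higher, and the groups did not overlap. The fold change was 1.43 (95% interval 1.03 to 2.00; log2 fold change 0.52 ± 0.19 SE; edgeR, unadjusted p = 0.038, adjusted p = 0.55). Leaving out any 1 library kept the log2 fold change between 0.40 and 0.63. The sums of the microglia, endothelial and meningeal fibroblast markers were also higher in both KO libraries. Each of these sums was higher in KO replicate 1 than in KO replicate 2, while Bmp7 was higher in KO replicate 2. The groups overlapped in 2 of the 8 meningeal fibroblast markers, beside 10690 of the 17696 genes tested. The listed choroid plexus and ependymal markers summed to 22.1 and 10.7 CPM in KO against 29.3 and 18.9 CPM in WT. The genes of this list went both ways. Foxj1 had 96 and 83 counts in KO against 323 and 125 counts in WT, and Ccdc153 66 and 56 against 140 and 122. Kl had 123 and 8 counts in KO against 0 in both WT libraries, and Clic6 20 and 12 against 0 and 2. In Folr1, Otx2 and Tmem212 the groups overlapped. The sum thus gives no direction for choroid plexus content alone. The part of these cell types in the Bmp7 difference was not tested.

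Bmp4 (ENSMUSG00000021835, chromosome 14, 46383520 to 46390669, minus strand), a ligand that in the brain is known from oligodendrocyte lineage cells about to mature, had 49.6 and 50.7 CPM in KO against 62.6 and 19.2 CPM in WT. The KO libraries were nearly equal and lay between the WT libraries, which differed from each other 3.26-fold. The log2 fold change was 0.29 ± 0.52 (SE; 95% interval -1.0 to 1.58; edgeR, adjusted p = 0.96). Leaving out WT replicate 2 gave -0.32 and leaving out WT replicate 1 gave 1.39, so no direction can be given. The summed level of the 8 oligodendrocyte precursor (OPC) markers was 2554 and 2600 CPM in KO against 2392 and 1859 CPM in WT. This list is not confined to precursors, as it includes Olig1, Sox10 and Enpp6. Olig1 alone had 1421 and 1439 CPM in KO against 1496 and 1067 CPM in WT. The summed level of the 8 markers of myelinating oligodendrocytes was 699 and 877 CPM in KO against 572 and 381 CPM in WT. WT replicate 2 was thus the lowest library in both sums, in 5 of the 8 OPC markers and in 6 of the 8 myelin markers. It was the highest library in the OPC marker Olig2, with 125 and 108 CPM in KO against 65.4 and 153 CPM in WT. It was also the highest in the myelin marker Ermn, with 1.81 and 2.21 CPM in KO against 7.47 and 8.48 CPM in WT. Mobp was at 0 in KO replicate 2 and in both WT libraries. The part of these cells in the Bmp4 level was not tested. Gm15217, a gene on the opposite strand that shares 89 bases of exon with Bmp4, was not listed.

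**Figure D3:**
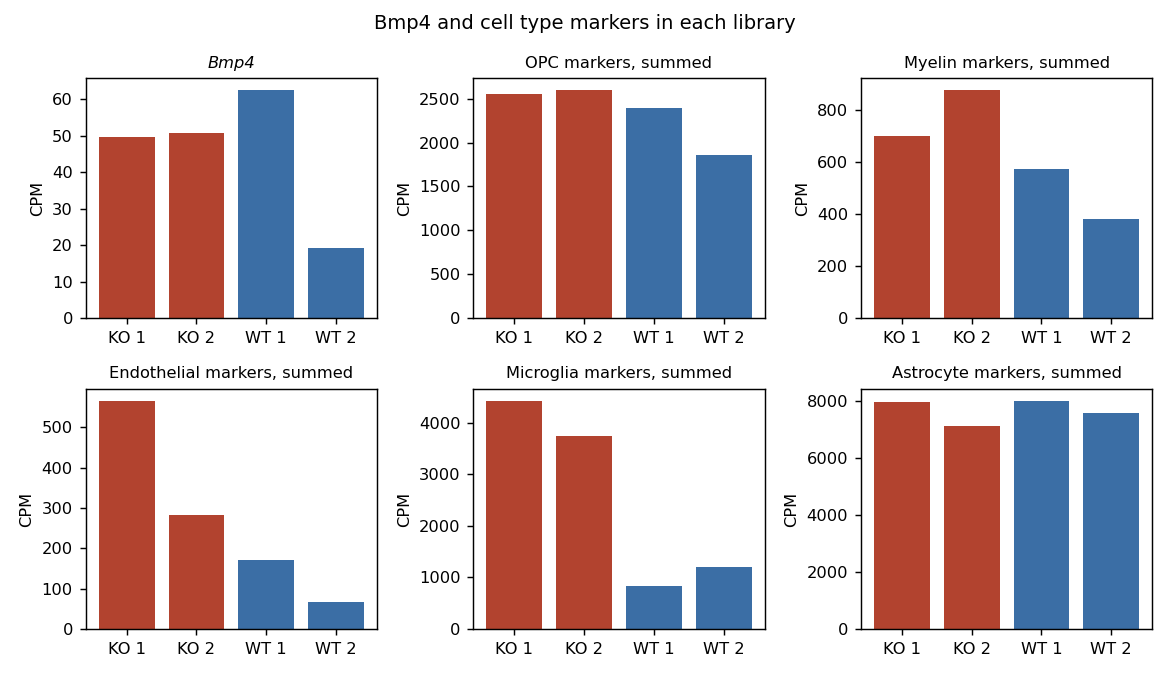
Bmp4 and the summed levels of 5 marker lists in each library (CPM, bars from 0), KO left of WT. WT replicate 2 is lowest in Bmp4 (19.2 CPM), in the OPC markers (1859 CPM), in the myelin markers (381 CPM) and in the endothelial markers (67.0 CPM), while astrocyte markers range from 7116 to 8002 CPM.

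Bmp2 (ENSMUSG00000027358, chromosome 2, 133552159 to 133562885, plus strand), a close relative of Bmp4, had 52 and 22 counts in KO against 16 and 54 counts in WT. Each group held 1 high and 1 low library. As CPM of all listed counts the 4 values were 3.23 CPM (exact 95% binomial interval 2.41 to 4.23) and 1.34 (0.840 to 2.03) in KO, and 0.943 (0.539 to 1.53) and 3.80 (2.85 to 4.95) in WT. The intervals of the high libraries did not meet those of the low ones within either group, so the replicates differed by more than counting error, which is all these intervals cover. The log2 fold change of -0.03 had a 95% interval from -2.56 to 2.50 (edgeR, adjusted p = 1.00).

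Bmp6 (ENSMUSG00000039004, chromosome 13, 38345716 to 38499728, plus strand), known in liver as the endothelial signal for iron load, had 0 and 19 counts in KO against 21 and 43 counts in WT. The count of 0 in KO replicate 1 had an exact 95% binomial interval of 0 to 0.229 CPM of listed counts. A limit set at 3 counts of the library total would be 0.186 CPM. The other KO library had 1.16 CPM of listed counts (exact 95% binomial interval 0.697 to 1.81), within the interval of WT replicate 1 at 1.24 (0.766 to 1.89). KO replicate 1 was low, and KO replicate 2 and WT replicate 1 could not be told apart at this depth. The log2 fold change was -1.85 ± 1.82 (SE; 95% interval -6.34 to 2.65; edgeR, adjusted p = 0.90). Its size was not set by these data, at -0.85 without KO replicate 1, -1.08 without WT replicate 2, -2.34 without WT replicate 1, -3.26 with limma-voom and -3.15 with the replicate block, and -8.06 without KO replicate 2, where no KO count is left and the value depends on the prior count. In GENCODE M21 the last exon of Bmp6 shares 224 bases with that of Txndc5 on the opposite strand, which had 901 to 1166 counts a library. The deposited position of Bmp6 ends before Txndc5 begins, and the part of this overlap in the Bmp6 counts was not tested.

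Summed over the 4 ligands, the level was 37.1 and 39.7 CPM per kb in KO against 39.3 and 20.8 CPM per kb in WT. Only WT replicate 2 stood apart, through Bmp4. Per kb Bmp4 was at 1.57 and 1.37 times the level of Bmp7 in KO, and at 2.56 and 0.82 times in WT.

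None of the 3 receptors passed, and their fold changes were small. Bmpr2 (ENSMUSG00000067336, chromosome 1, 59763400 to 59879014, plus strand), the type II receptor of the complex, had 225 and 217 CPM in KO against 182 and 197 CPM in WT. Both KO libraries were higher. The log2 fold change was 0.22 ± 0.12 (SE; 95% interval -0.08 to 0.52; edgeR, adjusted p = 0.74).

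Bmpr1a (ENSMUSG00000021796, chromosome 14, 34410734 to 34503341, minus strand), a type I receptor found in most tissues, had 60.7 and 68.1 CPM in KO against 72.1 and 83.6 CPM in WT. Both KO libraries were lower, and KO replicate 2 was at 0.944 times WT replicate 1. Its log2 fold change was -0.27 ± 0.18 (SE; 95% interval -0.72 to 0.17; edgeR, adjusted p = 0.80). A gene on the opposite strand, Gm17110, shares 290 bases of exon with it, and at 11 to 40 counts it was small beside the 972 to 1217 counts of Bmpr1a.

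Bmpr1b (ENSMUSG00000052430, chromosome 3, 141837136 to 142169425, minus strand), the type I receptor with a narrower range in tissues, had 62.9 and 68.0 CPM in KO against 68.6 and 62.0 CPM in WT. Its groups overlapped in full, and the 95% interval of the fold change ran from 0.744 to 1.35 (log2 fold change 0.00 ± 0.17 SE; edgeR, adjusted p = 1.00). The sum over the 3 receptors was 32.6 and 34.2 CPM per kb in KO and 33.0 and 34.5 CPM per kb in WT. Per kb Bmpr2 was at 1.31 and 1.12 times Bmpr1a in KO, and at 0.89 and 0.83 times in WT.

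Of the 3 ID genes, Id3 and Id1 had lower values in KO without overlap and Id4 did not, and none passed the threshold. Id3 (ENSMUSG00000007872, chromosome 4, 136143497 to 136145755, plus strand), which in mice is induced by BMP in neural precursors and endothelium, had 564 and 563 CPM in KO against 758 and 713 CPM in WT. The KO libraries were nearly equal, and both lay well below the WT libraries. Means were 563 ± 0.52 CPM in KO against 736 ± 31.7 CPM in WT (each SD over n = 2), a fold change of 0.766 (95% interval 0.653 to 0.899). The log2 fold change of -0.39 ± 0.09 (SE) ranked 334 of 17696 by p (edgeR, unadjusted p = 0.0068, adjusted p = 0.36) and thus did not pass over all genes. With DESeq2 it did (adjusted p = 0.021). Over all alternatives its adjusted p ran from 0.021 to 1.00 and its log2 fold change from -0.43 to -0.34. The 2 extremes of fold change came from leaving out WT replicate 2 and WT replicate 1.

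Id1 (ENSMUSG00000042745, chromosome 2, 152736251 to 152737410, plus strand), a textbook readout of SMAD1 and SMAD5 activity, had 125 and 139 CPM in KO against 150 and 160 CPM in WT. Both KO libraries were lower, but the groups lay closer to each other (139 and 150 CPM at the nearest) than the KO replicates did. Its log2 fold change was -0.23 ± 0.14 (SE; 95% interval -0.58 to 0.12; edgeR, adjusted p = 0.77), and between -0.31 and -0.15 with 1 library left out. Endothelial cells are known for high Id1 and Id3. The endothelial marker sums were higher in KO, at 567 and 283 CPM against 172 and 67.0 CPM in WT. The part of the endothelial content in either level was not tested.

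Id4 (ENSMUSG00000021379, chromosome 13, 48261427 to 48264036, plus strand), a member that acts in neural precursors and holds back oligodendrocyte maturation, had 38.1 and 28.8 CPM in KO against 26.3 and 33.9 CPM in WT. The groups overlapped. Its log2 fold change was 0.15 ± 0.27 (SE; 95% interval -0.51 to 0.82; edgeR, adjusted p = 0.96), -0.06 without KO replicate 1 and -0.02 without WT replicate 1. GENCODE M21 places 2 genes on the opposite strand over its exons, A330033J07Rik (48 to 117 counts a library) and Gm49291 (not listed). No source used here says if reads were counted by strand, so reads of such partners could be included. The sum over the 3 ID genes was 433 and 442 CPM per kb in KO and 559 and 545 CPM per kb in WT, mostly Id3.

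**Figure D4:**
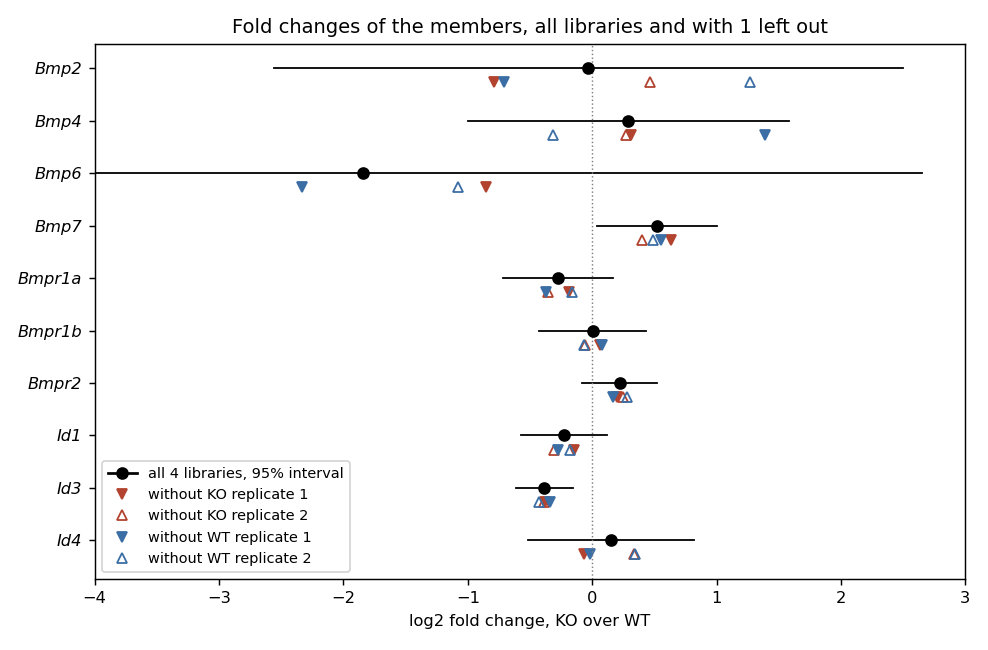
Log2 fold change of each member, KO over WT: black points with 95% intervals for all 4 libraries (edgeR), and triangles for fits with 1 library left out. The interval of Id3 lies wholly below 0 and that of Bmp7 wholly above 0, unadjusted; the Bmp4 triangles spread from -0.32 to 1.39; the Bmp6 interval runs past the axis, and its value without KO replicate 2, where no KO count is left, is not drawn.

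The rest of the pathway showed no called gene either. Of 48 further genes (ligands, receptors, antagonists, SMADs and targets) 39 were tested, 0 passed in either direction (edgeR adjusted p under 0.05), and 0 had an unadjusted p under 0.05, beside 8.29% of all genes. DESeq2 and limma-voom also called 0 of them. Their median log2 fold change was 0.16, with 24 above 0 and 15 below 0; it was 0.091 with KO replicate 2 left out and 0.017 with WT replicate 1 left out. Both KO libraries lay above both WT libraries in 10 of the 39, beside 21.2% of all genes, and below in 2, beside 18.4%.

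The 5 tested other ligands included Gdf11, a relative of myostatin, with 27.7 and 31.1 CPM in KO against 27.8 and 19.3 CPM in WT (log2 fold change 0.32 ± 0.28 SE), and Gdf10 (-0.17 ± 0.30 SE). Bmp3 and Gdf5 were chosen after their values were seen. Bmp3, a ligand that opposes other BMPs, had 2.81 and 10.6 CPM in KO against 13.9 and 29.2 CPM in WT. Both KO libraries were lower, with a wide spread in each group (log2 fold change -1.69 ± 0.71 SE; edgeR, unadjusted p = 0.056, adjusted p = 0.62), and the log2 fold change ran from -2.93 to -1.03 with 1 library left out. Gdf5, a ligand known from joint formation, had 9.37 and 8.40 CPM in KO against 3.20 and 5.15 CPM in WT. Both KO libraries were higher (log2 fold change 1.09 ± 0.49 SE; edgeR, unadjusted p = 0.070, adjusted p = 0.65). Among 8 other receptors and co-receptors the 2 highest in mean CPM were Rgma, a co-receptor (-0.18 ± 0.27 SE), and Eng, an endothelial co-receptor. Eng had 109 and 47.7 CPM in KO against 57.6 and 12.3 CPM in WT, in the same order of libraries as the endothelial sums but for WT replicate 1 above KO replicate 2. Its log2 fold change was 1.16 ± 0.74 (SE; edgeR, adjusted p = 0.79), and ran from 0.44 (WT replicate 2 left out) to 2.67 (WT replicate 1 left out).

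Of 13 tested antagonists 10 lay above 0, beside 8842 of the 17696 genes, and their median log2 fold change was 0.25, beside 0.00 over all genes. The groups overlapped in 8 of the 13, beside 10690 of the 17696 genes. Both KO libraries lay above both WT libraries in 5, beside 21.2% of all genes, and below in 0, beside 18.4%. An unadjusted p under 0.05 (edgeR) was found in 0 of the 13, beside 8.29% of all genes. Fstl1, a follistatin-like secreted protein, and Chrdl1, a chordin-like BMP binder made by astrocytes, had the highest mean CPM, Chrdl1 at 88.0 CPM just above Twsg1 at 86.1 CPM, and log2 fold changes of 0.25 ± 0.15 and 0.05 ± 0.25 (SE). Noggin (Nog) had 18 and 9 counts in KO against 7 and 9 counts in WT, too few to show a difference, and was chosen after its values were seen. The 8 SMAD and SMURF genes had a median of -0.03. Smad5, a mediator of BMP signals, had a log2 fold change of -0.24 ± 0.16 (SE), and Smurf2, a ubiquitin ligase that removes SMADs and receptors, -0.06 ± 0.25. The inhibitory Smad6 and Smad7, feedback targets of the pathway also chosen afterwards, had log2 fold changes of 0.00 ± 0.82 and -0.10 ± 0.63 (SE) on 29 to 78 counts a library.

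Among 5 other targets Id2, the remaining ID gene, had 227 and 260 CPM in KO against 243 and 272 CPM in WT. The groups overlapped (log2 fold change -0.08 ± 0.14 SE; edgeR, adjusted p = 0.96). Hey1, a repressor induced by BMP and Notch signals, had 132 and 96.0 CPM in KO against 149 and 148 CPM in WT, both KO libraries lower (-0.38 ± 0.19 SE; edgeR, adjusted p = 0.69). Of the E proteins that ID proteins bind, Tcf4 had the highest mean CPM, with 1538 and 1744 CPM in KO against 1645 and 1745 CPM in WT (-0.05 ± 0.09 SE), and Tcf3 had a log2 fold change of -0.07 ± 0.12 (SE). Tcf12, chosen after its values were seen, had 170 and 146 CPM in KO against 124 and 122 CPM in WT (0.36 ± 0.15 SE; edgeR, unadjusted p = 0.051, adjusted p = 0.61), with both KO libraries higher.

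**Figure D5:**
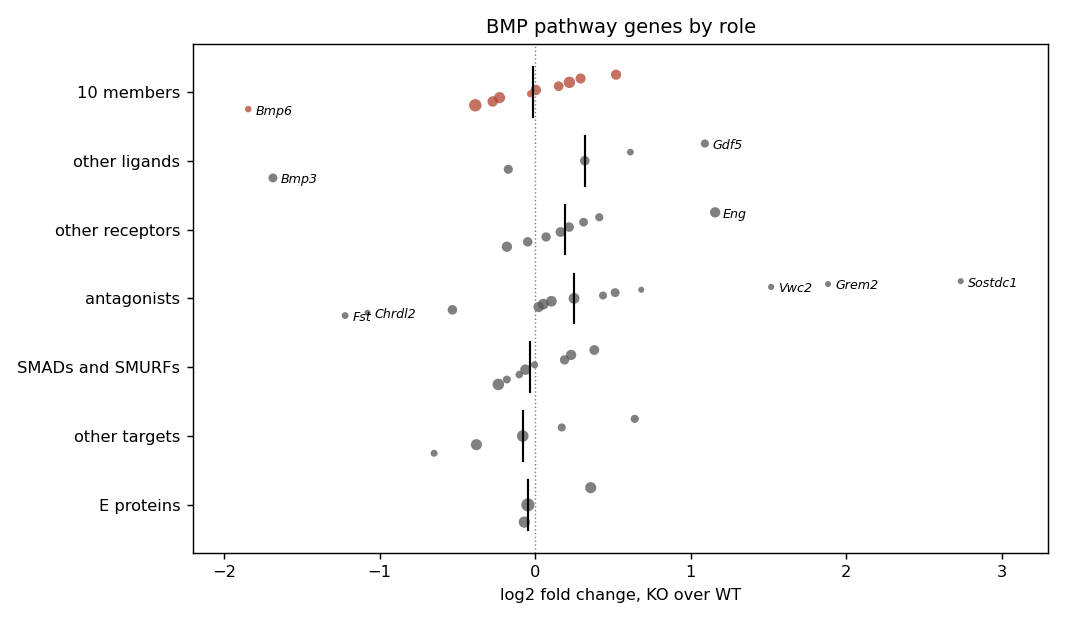
Log2 fold change, KO over WT, of the 10 members and of the tested genes of 6 further lists by role; each point is a gene, larger with mean CPM, and vertical bars are list medians. Medians lie between -0.08 (other targets) and 0.32 (other ligands), and the genes beyond 1 in either direction are named.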

How the data were processed

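Whole-number counts per gene were deposited in 4 tables, each pairing 1 KO with 1 WT library, per the file headers. The tools named in the submitters' processing notes, without roles, are HTSeq 0.6.0, TopHat2 2.0.12 and Bowtie2 2.2.3, with build mm9; 90.6% of the deposited gene positions equal GENCODE M21 (GRCm38), and positions are given on GRCm38. The 8 normalized columns were not used. Tables were merged on the gene ID, and repeated counts of a library were identical. A count beside 0 was listed from 5 upward, so an unlisted count was taken as 0 and can be at most 4.

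Groups were compared with edgeR 4.0.16 (R 4.3.3; TMM, quasi-likelihood test, filterByExpr with a minimum count of 10, Benjamini-Hochberg over 17696 genes, threshold 0.05). There were 2 residual degrees of freedom. Standard errors were derived from F, and 95% intervals from the t distribution with the test's degrees of freedom. CPM used TMM-scaled library sizes, and exon lengths the union of GENCODE M21 exons. The labels do not say if libraries of a group came from separate animals. The KO libraries, which differ in Xist and Ddx3y, did, while this is not known for the WT libraries. A p-value reflects how far these libraries lie apart, and an exact permutation test of 2 against 2 cannot go below 0.333. All tools were run on simulated data, set to a lower dispersion than the common dispersion of 0.204 in these data. That run thus does not show how often they call correctly here. Alternatives were DESeq2 1.42.0, limma-voom (limma 3.58.1), other scalings and filters, unlisted counts at their limit, a replicate block and each library left out. The members and lists were chosen with earlier results of these data known. Of the pathway and E protein lists, the 2 tested genes of each with the highest mean CPM were named. Genes said to be chosen afterwards were added to them. Any gene of these lists past the threshold would also have been named, but there was none. Of the marker lists 1 gene passed, the microglia marker P2ry12, higher in KO (edgeR, adjusted p = 0.029).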

Additional observations from a re-analysis of the deposited data

How the results depend on the processing

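Of the members, 0 passed under every alternative but DESeq2, which called 1, Id3 (log2 fold change -0.39). Pathway genes past the threshold stayed at 0 under all 12 alternatives. Over all genes, 3 higher and 0 lower became 315 and 63 with DESeq2, 25 and 3 with limma-voom, 52 and 4 without a low-count filter, and 63 and 5 over genes averaging 5 CPM or more. With 1 library left out there were 0 to 41 higher (0 without KO replicate 2, 1 without WT replicate 1, 6 without KO replicate 1 and 41 without WT replicate 2) and 0 to 1 lower. The median log2 fold change of the members, -0.01, was 0.079 with limma-voom, 0.074 over genes averaging 5 CPM or more, 0.072 with the replicate block, and -0.147 to 0.095 with 1 library left out. The pathway median ran from 0.017 to 0.196 with 1 library left out. Bmpr1b was at -0.002 with DESeq2 size factors or DESeq2 and at -0.008 with library totals. Bmp2 was at 0.24 with limma-voom and 0.14 with the replicate block. With 1 library left out the log2 fold change ran from -0.79 to 1.27 for Bmp2, -0.32 to 1.39 for Bmp4, -0.064 to 0.08 for Bmpr1b, -0.063 to 0.35 for Id4, -0.42 to 0.040 for Gdf10, -0.47 to 0.18 for Rgma, -0.24 to 0.42 for Chrdl1, -0.31 to 0.24 for Smurf2, -0.18 to 0.019 for Id2 and -0.14 to 0.044 for Tcf4. The cause was not tested. With 1 library left in a group, that library is assumed to vary like the others. The replicate numbers are not stated to pair animals, same-numbered libraries correlated in their deviations at 0.0405 over genes, and the block changed no call among the members. Counts of 0 to 54 for Bmp2 and Bmp6 limit what can be seen of them.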
